A study of Mus musculus with 12 samples.

Results

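In mouse embryonic fibroblasts reprogrammed in the MidK2 course, the share of X-linked reads that carry the reference base was compared between day 36 and day 29. The members are 290 genes of the 398 named in the tables of the 12 libraries. They were chosen by 1 rule: a gene had to hold at least 1 single-base variant that both tables list with a coverage of 20 reads or more. The 2 tables share 2584 such sites, and 2386 of them carry 1 gene name. Both MidK2 libraries come from fibroblasts given the Sendai virus vector SeVdp(fKOSMaB) and 30 nM Shield1, one taken on day 36 and the other on day 29. MEF2, the fibroblast library shown beside them, received neither vector nor agent and is labelled day 0. The other libraries of the same course are those of day 18 and day 22, and a second course with Shield1 (MidK1) and a course without it (LowK) complete the series. The sources used here name no mouse strain, sex of the embryos, parent of each X chromosome or feeder cells.

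X inactivation silences a single X chromosome in each cell of female mammals, and the silent X is inherited through cell division. When somatic cells are reprogrammed to pluripotency, the silent X can be switched on again, gene by gene, whereas some genes escape silencing in somatic cells too. Where the X chromosomes differ by a base, RNA-seq reads over that base tell the alleles apart. The reference share used below is the percentage of reads at a site that carry the base of the reference genome, summed over the sites of a gene. Of the shared sites, 1687 carried 80% or more variant reads in a fibroblast library. Reference reads in the reprogrammed libraries at those sites carry the base that is little read in fibroblasts. Strain and feeder cells are not named, and whether all these reads come from the reprogrammed cells was not tested. In bulk RNA, fewer cells that read the reference allele and less reference RNA per cell cannot be told apart.

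The sites that carry the values are illustrated by 7 stretches of transcript, shown because the genes differ in what their reference reads did. Each is read from the GENCODE M21 transcript in its sense direction (GRCm38, mm10), 29 bases long, with the variant position, base 15 counted from 1 at the 5′ end, in capitals as the reference base. The genes below lie on the plus strand (Msn, Hprt, Tfe3, Ddx3x) or the minus strand (Renbp, Plp2, Bcor).
Msn, chrX:96163751, exon 10, coding, G15A: aaggctcagcaagaGctggaagagcagac
Renbp, chrX:73926264, exon 9, coding, T15A: gacagtggggacccTgccttgctgcatct
Hprt, chrX:53021069, exon 9, coding, C15T: agggatttgaatcaCgtttgtgtcattag
Plp2, chrX:7668934, exon 4, coding, T15C: agacatacagcagcTcccactgaccccac
Tfe3, chrX:7773529, exon 10, coding, A15G: atccatggtctgccAgtccctcccaaccc
Bcor, chrX:12038998, exon 14, coding, G15C: ccagatgaggaagaGgatacctatagcga
Ddx3x, chrX:13292623, exon 17, UTR, A15C: ctttgtaaaaaaaaAaaaaacaaaacaaa
At the Msn site the reference base made up 4.72% of 127 reads at day 36, against 28.1% of 171 reads at day 29. At the Renbp site it made up 0.98% of 102 reads at day 36 and 17.7% of 79 reads at day 29. At the Hprt site the values were 1.30% of 154 reads at day 36 and 6.67% of 120 reads at day 29. These 3 sites lost reference reads, and each stood at 1.25% or less in MEF2. The Plp2 site had 65.7% reference reads of 239 at day 36, against 44.1% of 136 at day 29. The Tfe3 site had 27.2% of 92 reads at day 36 and 10.98% of 82 reads at day 29. The Bcor site had 40.7% of 189 reads at day 36 and 21.8% of 101 reads at day 29. These 3 sites gained reference reads, with MEF2 values of 2.78%, 0% and 0% on 36, 48 and 21 reads. The Ddx3x site lies in a run of A and differs from the others in that it was mostly reference in every library shown: 92.5% of 671 reads at day 36, 90.0% of 459 reads at day 29 and 88.3% of 230 reads in MEF2. Such a site adds reference reads to its gene's sum on both days, and the values per site are therefore given with the genes below. Across the 290 genes, 2329 exonic sites could be read from a transcript, and the reference base of the table matched the transcript at all 2329.

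Reference reads were lost across much of the chromosome, mostly from genes at which they were a minority at day 29. The median gene stood at 2.59% reference reads at day 36, against 8.46% at day 29. The median difference, day 36 minus day 29, was −2.38 percentage points (quartiles −6.27 and 0), with 197 genes lower, 66 higher and 27 equal. By Fisher's exact test on reference and variant reads, two-sided and adjusted by Benjamini-Hochberg over the 290 genes, 105 genes were lower at day 36 (36.2%) and 14 were higher (4.83%) at an adjusted p under 0.05. At least 20 percentage points separated the libraries in 3 of the lower genes (1.03%), Maged2, Msn and Clcn5, and in 1 of the higher genes (0.345%), Plp2. Over all shared sites the reference share was 14.6% of 239448 reads at day 36 and 17.2% of 186706 reads at day 29. Each day is 1 library, so the tests compare these 2 libraries and cover counting error only. Sites of a gene can lie on the same read, and reads without molecular identifiers are not independent molecules.

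**Figure D1:**
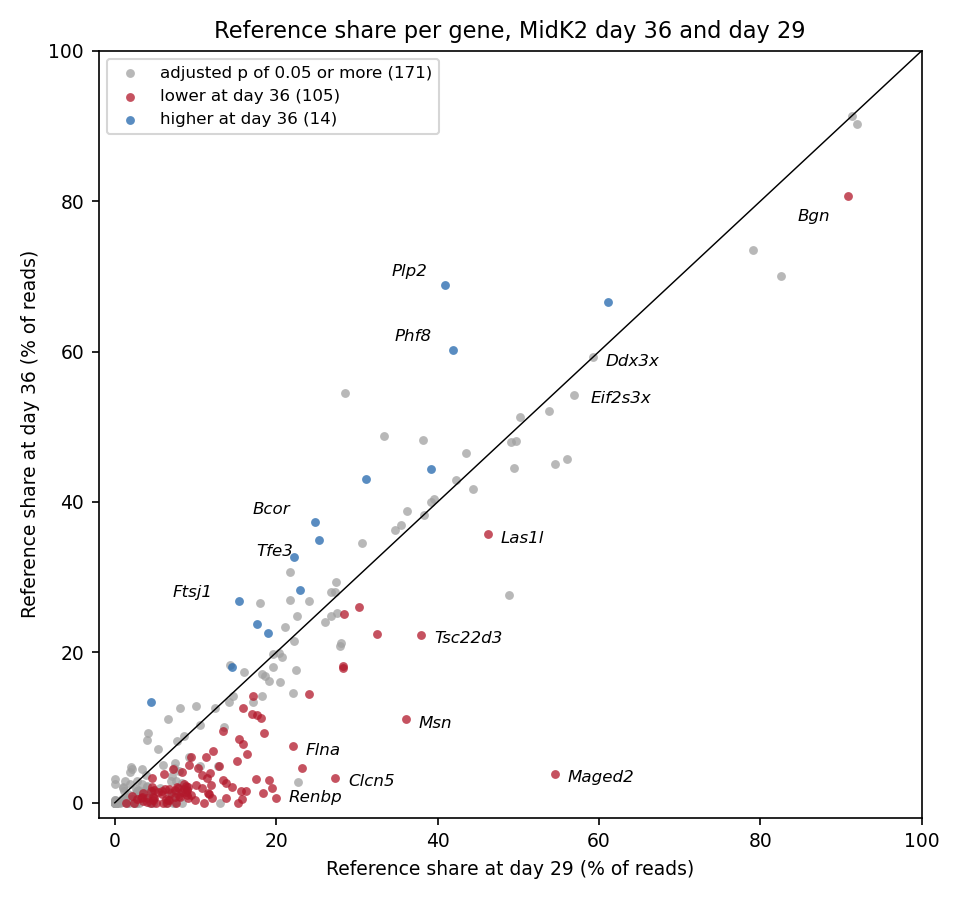
Each point is 1 of 290 genes, with its reference share at day 36 on the vertical axis and at day 29 on the horizontal axis, both in percent of reads; the line marks equal shares. The 105 lower genes (red) lie mostly under 20% at day 29 and close to the horizontal axis, and the 14 higher genes (blue) lie above the line, with Plp2 at 68.9% and 41.0%.

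Genes were also grouped by their level at day 29, and the loss was most frequent between 5 and 20%. Of 102 genes below 5% at day 29, 18 fell and 1 rose. Of 117 genes between 5 and 20%, 72 fell and 4 rose, and the median of this class was 3.07% at day 36 against 10.1% at day 29. Of 48 genes between 20 and 40%, 12 fell and 6 rose, with class medians of 25.2% at day 36 and 27.3% at day 29. Of 23 genes at 40% or more, 3 fell and 3 rose. A class chosen by its day 29 level holds some genes whose level was high there by counting error, and genes below 5% had little share to lose. These counts and medians are therefore given as a description. The 171 genes that passed in neither direction were more thinly covered: their median coverage at day 29 was 168 reads, against 529 reads for the genes that passed, and 67 of them had under 100 reads.

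Msn, which encodes moesin, a linker between the actin cytoskeleton and the plasma membrane, had the most reads of the 3 genes that fell by 20 points or more. It had 244 reference reads of 2195 at day 36, or 11.1% (95% Wilson interval 9.87 to 12.5%), and 889 of 2465 at day 29, or 36.1% (34.2 to 38.0%). The difference was −24.9 points with an adjusted p of 2.16e-89 by Fisher's exact test, and 26 of its 27 sites were lower at day 36. The remaining site, at 93.8% and 93.4%, was mostly reference on both days. With the day 29 reads multiplied by 1.28, the ratio of the libraries' summed coverage at shared sites, the 244 reference reads compare with 1140.1 scaled reads, while the variant reads were 1951 against 2021 scaled.

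Clcn5, an endosomal chloride and proton exchanger, had 5 reference reads of 149 at day 36, or 3.36% (1.44 to 7.61%), and 35 of 128 at day 29, or 27.3% (20.4 to 35.6%). Its adjusted p was 6.56e-08, and all 4 of its sites, in the UTR, were lower at day 36. At a minimum of 10 reads per site, which takes in 19 sites, its difference was −12.7 points and no longer reached 20 points, with an adjusted p of 8.87e-10 by Fisher's exact test. Maged2, a member of the MAGE family, had 1 reference read of 26 at day 36 and 12 of 22 at day 29, or 3.85% and 54.5%. It rests on a single coding site with an adjusted p of 5.71e-04, and its intervals, 0.68 to 18.9% and 34.7 to 73.1%, are wide. Both genes have intervals that do not overlap between the days.

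A group of 6 further genes had the next most negative differences among genes with 100 or more reads in both libraries. Renbp, the renin-binding protein, had 4 reference reads of 595 at day 36, against 106 of 530 at day 29, or 0.67% and 20%. Gpc4, a glypican of the cell surface, stood at 4.68% of 363 reads at day 36 and 23.2% of 293 reads at day 29. Tspyl2, a nuclear protein of the nucleosome assembly family, stood at 2.00% of 400 reads at day 36 and 19.5% of 298 reads at day 29. In these 3 genes every site was lower at day 36, and the adjusted p was at most 2.07e-11 in each by Fisher's exact test. With the best-covered site alone, Gpc4 differed by −2.65 points and Tspyl2 by −9.63 points, and neither passed the exact test (adjusted p of 1 and 0.588), while Renbp passed at −16.7 points. At 50 reads per site, which leaves 2 sites, Gpc4 differed by −11.8 points. Taz, the tafazzin of cardiolipin remodelling, had 2 reference reads of 151 at day 36 and 34 of 185 at day 29, or 1.32% and 18.4%. Prdx4, a peroxiredoxin of the endoplasmic reticulum, stood at 3.07% of 423 reads at day 36 and 19.1% of 351 reads at day 29. All 5 sites of each of these genes were lower. Tsc22d3, the glucocorticoid-induced leucine zipper, had higher summed shares: 22.3% of 336 reads at day 36 and 38.0% of 229 reads at day 29. Its 6 sites mostly variant in fibroblasts held 6.64% of 241 reads at day 36. The same sites held 24.7% of 170 reads at day 29, a difference of −18.1 points. Tsc22d3 holds sites of different kinds, from 0 to 87.8% at day 36. The site median was 4.51% at day 36, against 21.3% at day 29, and 7 of its 8 sites were lower. With sites at least 150 bases apart, which leaves 3 sites, its difference was −2.71 points and did not pass the exact test (adjusted p of 0.995), and with the best-covered site alone it was −32.9 points.

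**Figure D2:**
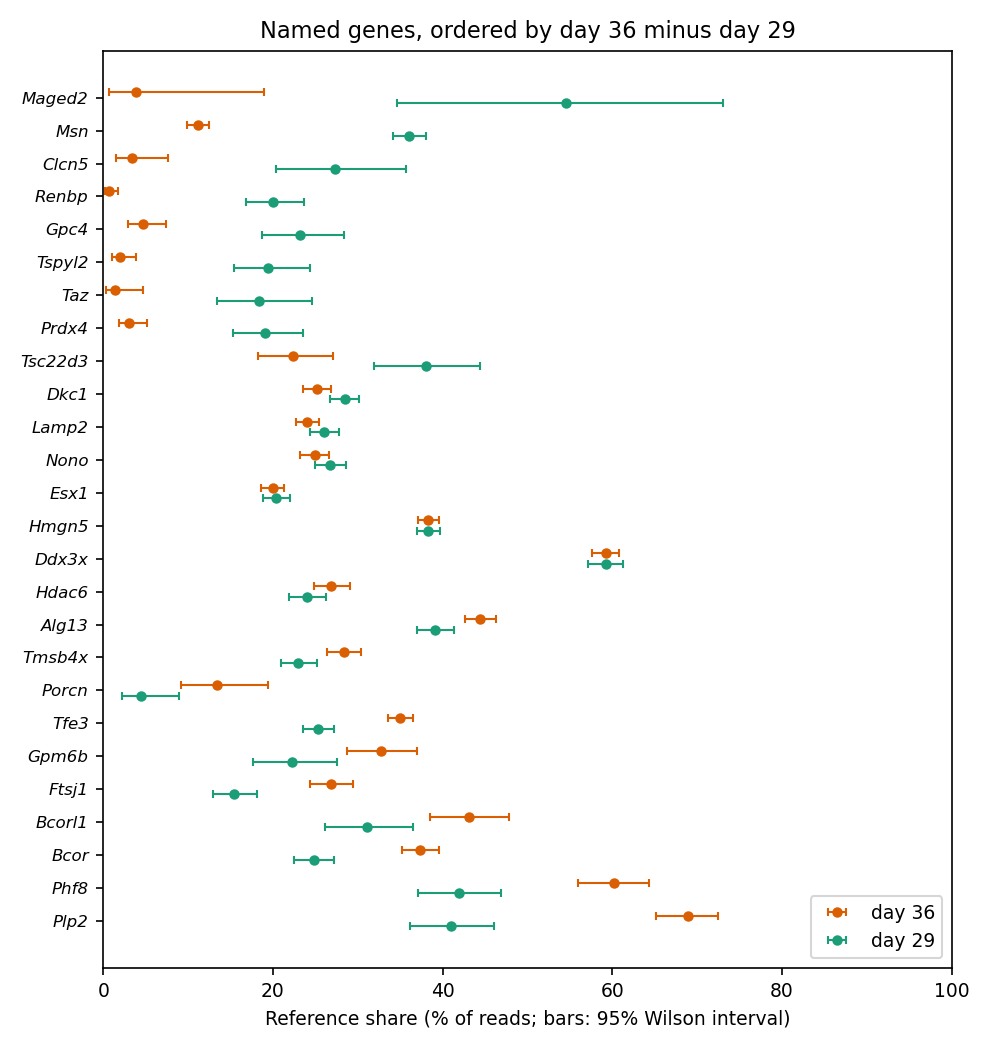
Reference share at day 36 (orange) and day 29 (green) of 26 named genes, in percent of reads, with 95% Wilson intervals as bars, ordered from the most negative to the most positive difference. The 8 uppermost genes end at 11.1% or less at day 36, the genes in the middle differ by a few points, and the lowest 8 were all higher at day 36.

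Of the 1098 sites in the 105 lower genes, 883 were lower at day 36 and 91 were higher, a description of genes chosen for a lower sum. With the best-covered site of each gene alone, 32 genes were lower at an adjusted p under 0.05. At day 36, 79 of the 105 genes stood under 5% and 6 stood at 20% or more. Their medians were 1.91% at day 36 and 9.92% at day 29, and 28 of them fell by 10 points or more. Rhox5, a homeobox gene of the reproductive cluster that is expressed in embryonic stem cells, had 7 reference reads of 1021 at day 36 and 69 of 760 at day 29. Smc1a, a cohesin subunit, had 1 of 1333 reads at day 36 and 32 of 799 at day 29. Suv39h1, a histone H3 lysine 9 methyltransferase, had 0 of 245 at day 36 and 14 of 186 at day 29.

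The reads were also split by allele. The scaling sets the summed coverage of the libraries equal, and most of that coverage is variant reads, so a variant change near 0 over many genes follows in part from the scaling. In the 105 lower genes the median change was −2.22 in scaled reference reads and 0.05 in variant reads, as log2 of day 36 over day 29 with 0.5 reads added to each. Of these genes 102 had fewer scaled reference reads, 83 of them by 2-fold or more, and 1 had variant reads changed by 2-fold or more. That gene was Bgn, biglycan, a matrix proteoglycan, which was mostly reference on both days and had fewer reads of both alleles at day 36. Bgn had 247 reference reads of 306 at day 36 and 1414 of 1557 at day 29, or 80.7% and 90.8%, with an adjusted p of 9.09e-06 by Fisher's exact test. Its 59 variant reads at day 36 compare with 183 scaled reads at day 29, and its 247 reference reads with 1813 scaled reads. Timp1, a secreted metalloproteinase inhibitor, lost reads of both alleles without a called change in share, at 21.5% of 293 reads at day 36 and 22.2% of 582 reads at day 29. Over all 290 genes the median change in reference reads was −0.65 and in variant reads 0.00 on the same log2 scale.

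**Figure D3:**
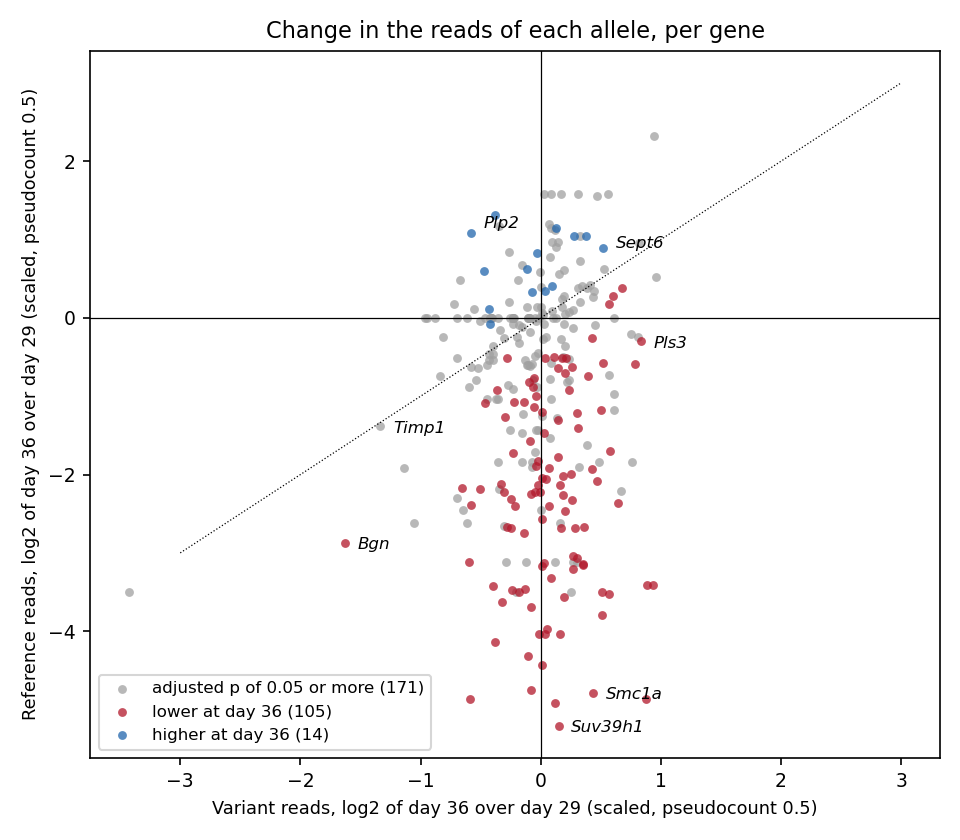
Log2 change, day 36 over day 29, of reference reads (vertical) against variant reads (horizontal) for 290 genes, after scaling by summed coverage and with 0.5 reads added; on the dotted line the reads of both alleles changed alike. The lower genes (red) spread downward around a variant change near 0, with a median of −2.22 for reference reads, while Bgn also lost variant reads.

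Of the 14 higher genes, 1 had fewer scaled reference reads at day 36 and 8 had fewer scaled variant reads. Their medians were 33.9% at day 36 and 23.9% at day 29, the median change was 0.73 in scaled reference reads and −0.05 in variant reads on the log2 scale, and 183 of their 226 sites were higher at day 36. Plp2, a proteolipid of the endoplasmic reticulum membrane, had 421 reference reads of 611 at day 36, or 68.9% (65.1 to 72.4%), and 154 of 376 at day 29, or 41.0% (36.1 to 46.0%). All 5 of its sites were higher, and the adjusted p was 1.59e-16 by Fisher's exact test. Its variant reads numbered 190 at day 36, against 285 scaled reads at day 29.

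Transcription regulators were among the genes that gained. Tfe3, a basic helix-loop-helix transcription factor known in mouse embryonic stem cells for its part in the exit from pluripotency, had 1446 reference reads of 4131 at day 36 and 545 of 2155 at day 29, or 35.0% and 25.3%. Of its 26 sites, 25 were higher. Bcor, a corepressor of a variant Polycomb complex, stood at 37.3% of 1901 reads at day 36 and 24.8% of 1259 reads at day 29, and its paralogue Bcorl1 at 43.1% of 432 reads at day 36 and 31.1% of 302 reads at day 29. In Bcor 18 of 19 sites were higher, in Bcorl1 10 of 11. The adjusted p was 4.17e-14 for Tfe3, 1.58e-12 for Bcor and 0.004 for Bcorl1 by Fisher's exact test. Bcorl1 did not pass with sites 150 bases apart (7.28 points, adjusted p of 0.368), at sites mostly variant in fibroblasts (8.55 points, 0.201) or with Bonferroni adjustment (0.340). With the best-covered site alone none of these 3 genes passed the exact test, at 2.60 points for Tfe3, 10.01 for Bcor and 13.7 for Bcorl1.

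Phf8, a histone demethylase, stood at 60.2% of 518 reads at day 36 and 41.9% of 384 reads at day 29, with an adjusted p of 4.40e-07 by Fisher's exact test. Of its 7 sites 5 were higher, all between chrX:151633412 and chrX:151633430. A 76-base read can span them all, so the test can count the same read more than once. Phf8 differs from the others in that MEF2 already held 43.4% on 212 reads. At its 2 sites that are mostly variant in fibroblasts the direction was the opposite, 1.14% of 88 reads at day 36 and 5.88% of 102 reads at day 29, with an adjusted p of 0.201. With the best-covered site alone it differed by 23.7 points with an adjusted p of 0.0503.

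The other higher genes have varied roles. Ftsj1, a tRNA methyltransferase, stood at 26.9% of 1184 reads at day 36 and 15.4% of 729 reads at day 29, with 17 of 19 sites higher. Gpm6b, a neuronal membrane glycoprotein, stood at 32.7% of 486 reads at day 36 and 22.2% of 270 reads at day 29. Porcn, the acyltransferase that acylates Wnt proteins, had 23 reference reads of 171 at day 36 and 7 of 157 at day 29. Gpm6b and Porcn did not pass the exact test with sites 150 bases apart (adjusted p of 0.413 and 0.368), with the best-covered site alone (0.321 and 0.383) or with Bonferroni adjustment (0.740 and 1), and Ftsj1 did not with the best-covered site alone (0.312). Smaller differences at an adjusted p under 0.05 were found for Sat1, Uba1, Sept6, Alg13, Tmsb4x and 1810030O07Rik, between 3.49 and 6.14 points. Uba1, the main ubiquitin-activating enzyme, stood at 22.5% of 4420 reads at day 36 and 19.0% of 3080 reads at day 29. Tmsb4x, thymosin beta 4, which binds actin monomers, stood at 28.3% of 2005 reads at day 36 and 22.97% of 1528 reads at day 29. Its difference of 5.36 points was 18.4 points without its best-covered site, and neither it nor Alg13 passed with Bonferroni adjustment (Fisher's exact test, adjusted p of 0.0924 and 0.0672).

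Among genes with a high share at day 29, the 10 best covered were described: the 10 with the most reads at day 29 among those at 20% or more and within 10 points between the days. They are Hmgn5, Dkc1, Lamp2, Esx1, Nono, Ddx3x, Tfe3, Alg13, Tmsb4x and Hdac6, and their day 29 shares and the size of their differences are part of the rule. Not all of them kept their level: Dkc1, a pseudouridine synthase, was lower, at 25.2% of 2742 reads at day 36 and 28.4% of 2708 reads at day 29 (Fisher's exact test, adjusted p of 0.0178), and Tfe3, Alg13 and Tmsb4x were higher. The call of Dkc1 ended at 50 reads per site, with the best-covered site alone, at sites mostly variant in fibroblasts, at sites with reference reads in another library and with Bonferroni adjustment, with differences between −3.27 and −0.57 points. Ddx3x, an RNA helicase that escapes X inactivation in mouse, stood at 59.2% of 3687 reads at day 36 and 59.2% of 2199 reads at day 29. Its site median, which counts the site in the run of A once, was 50.8% at day 36 and 45.2% at day 29. Hdac6, a cytoplasmic deacetylase, stood at 26.9% of 1703 reads at day 36 and 24.0% of 1495 reads at day 29, a difference of 2.88 points with an adjusted p of 0.143. Unlike Ddx3x, with 44.5% in MEF2, Hdac6 had 0.58% of 865 reads in MEF2, and its sites at day 36 ranged from 16.7 to 38.7% over 22 sites.

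Several genes of this set were mixtures of sites. The site median was 0.71% at day 36 and 1.63% at day 29 in Dkc1, and 0.60% at day 36 and 0.26% at day 29 in Esx1, a homeobox gene of the placenta, far below their summed shares. In Hmgn5, a nucleosome-binding protein, sites at day 36 ran from 0 to 88.9%, and the gene stood at 38.3% on both days and at 37.4% in MEF2. In Nono, a nuclear RNA-binding protein, the site median was 8.0% at day 36 and 19.2% at day 29, although the summed shares were 24.9% and 26.8%. Lamp2, a lysosomal membrane protein, stood at 24.0% of 3703 reads at day 36 and 26.1% of 2521 reads at day 29. Restricted to sites at which fibroblasts carried 80% or more variant reads, Nono fell to 3.86% of 1607 reads at day 36, against 9.14% of 1499 reads at day 29, with an adjusted p of 1.21e-08. At such sites Lamp2 fell to 15.5% at day 36, against 19.5% at day 29, with an adjusted p of 3.35e-04, and Hmgn5 to 3.39%, against 4.79%, with an adjusted p of 0.0307. Over all 222 genes with such sites, 102 were lower and 7 higher by the same Fisher's exact test, and the medians were 1.71% at day 36 and 6.94% at day 29. Of the 32 genes at 20% or more there at day 29, 10 were lower and 4 higher.

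The earlier libraries of the course place the loss in time. The median of the 105 lower genes was 1.29% in MEF2 (86 genes measured), 4.05% at day 18, 10.5% at day 22, 9.92% at day 29 and 1.91% at day 36. Of the 86 genes, 69 stood above their MEF2 Wilson interval at day 29, and 19 did at day 36. The median of the 14 higher genes was 1.38% in MEF2 (9 genes measured), 7.07% at day 18, 15.9% at day 22, 23.9% at day 29 and 33.9% at day 36. Day 29 and day 36 values chose both groups and are a description. Sums in MEF2 and on days 18 and 22 cover only the gene's sites listed there at 20 reads or more. The site sets can therefore differ between libraries, in these medians and counts too. Msn stood at 1.01% in MEF2, 8.87% at day 18, 26.8% at day 22, 36.1% at day 29 and 11.1% at day 36. These rest on 26, 25 and 26 sites, and on 27 at days 29 and 36. At its 26 sites mostly variant in fibroblasts Msn stood at 33.1% at day 29 and 6.67% at day 36. Renbp was highest at day 22: 0.55% in MEF2, 6.29% at day 18, 25.5% at day 22, 20% at day 29 and 0.67% at day 36. Maged1, another MAGE family gene, stood at 0.87% in MEF2, 4.77% at day 18, 16.5% at day 22, 16.2% at day 29 and 1.52% at day 36. Bcor stood at 0% in MEF2, 4.24% at day 18, 11.04% at day 22, 24.8% at day 29 and 37.3% at day 36.

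**Figure D4:**
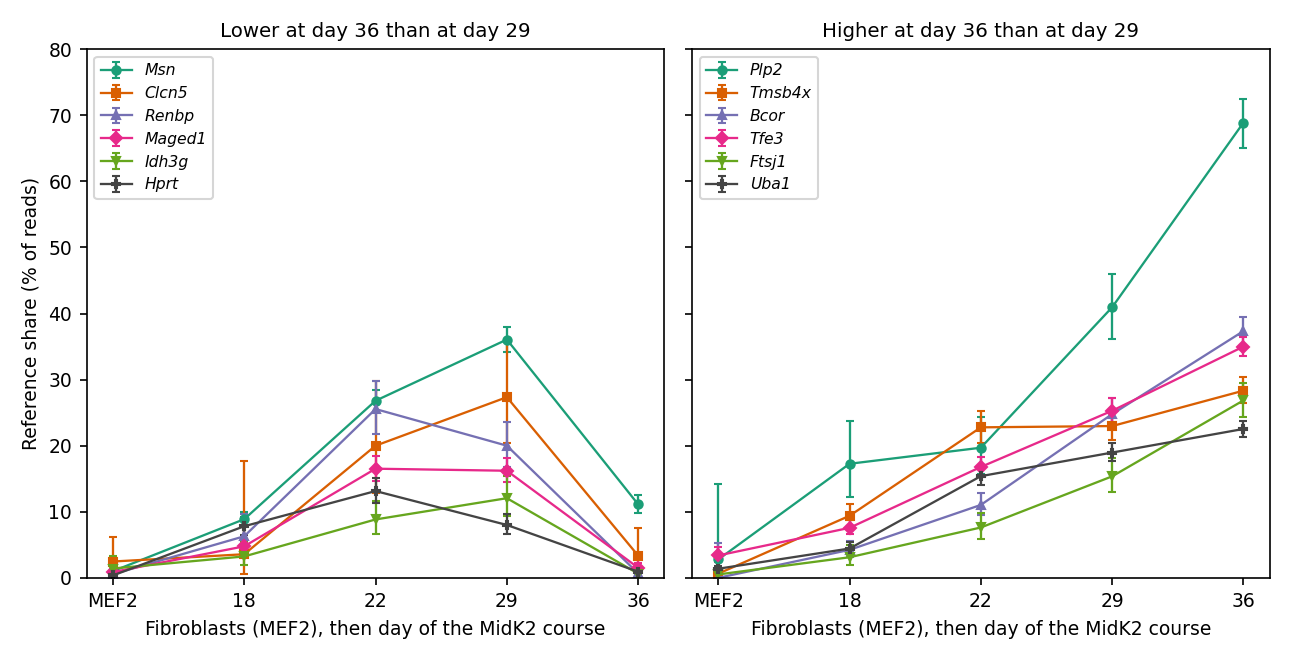
Reference share in percent of reads in MEF2 and on days 18, 22, 29 and 36 of the MidK2 course, 1 library each, for 6 genes lower (left) and 6 genes higher (right) at day 36 than at day 29; bars are 95% Wilson intervals. Genes on the left return to 11.1% or less at day 36, and genes on the right reach 22.5% or more.

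The other steps of the series give the background of how many genes pass between 2 libraries of a course. The share of genes lower at an adjusted p under 0.05 was 36.2% from day 29 to day 36, and that of genes higher was 4.83%. From day 22 to day 29 the shares were 5.36% lower and 7.86% higher, and from day 18 to day 22 they were 1.05% lower and 40.6% higher. In MidK1 they were 3.85% lower and 12% higher from day 35 to day 52, and 0% lower and 25.8% higher from day 52 to day 56. In LowK they were 1.65% lower and 12.3% higher, and 0% lower and 16.2% higher, over the same days. Neighbouring steps share a library, the tables of MidK1 and LowK list variants from a higher minimum of reads, and the difference between steps was not tested.

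Reference reads were also set against the MEF2 coverage of the same sites, with the day 29 reads multiplied by 1.28 as before. The MEF2 coverage itself was not scaled. Over 176 genes the median was 3.33% of the MEF2 coverage at day 36 and 12.2% at day 29. In the 86 lower genes the medians were 2.18% at day 36 and 11.7% at day 29. In the 9 higher genes they were 91.1% at day 36 and 60.8% at day 29. These ratios also move with library depth and with the gene's expression.

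As a count of genes read from both alleles, 56 of 290 (19.3%) were biallelic at day 36 and 93 (32.1%) at day 29, where biallelic means a median minor share of 10% or more over the sites. Of the genes that differed, 5 were biallelic at day 36 alone and 42 at day 29 alone (exact McNemar test, two-sided, p = 2.46e-08). The 5 genes were Bgn, Vbp1, Sept6, Mospd1 and Porcn. With a minor share of 20% as the limit, the counts were 7 and 11 and the exact p was 0.481.

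Genes were placed by their GRCm38 coordinates and counted in stretches of 30 Mb. From 0 to 30 Mb, 11 of 49 genes were lower and 7 higher, with a median difference of 0 points. From 60 to 120 Mb no gene was higher at this threshold: 22 of 51 genes were lower from 60 to 90 Mb, with a median of −3.83 points, and 19 of 49 from 90 to 120 Mb, with a median of −2.97 points. From 30 to 60 Mb, 19 of 52 genes were lower and 2 higher, and from 120 to 150 Mb 16 of 40 were lower and 1 higher. From 150 to 180 Mb 18 of 49 were lower and 4 higher, among them Phf8 and Sat1. Genes of a band are not replicates, and no test was made between bands.

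Genes that rose and genes that fell lay next to each other in the first stretch. In order along the chromosome, Clcn5 (chrX:7153810-7319358, minus strand) fell, and Plp2 (chrX:7667941-7671390, minus strand) and Tfe3 (chrX:7762560-7775202, plus strand) rose. Gripap1, Pqbp1, Timm17b and Suv39h1 followed and fell, by 8.21, 10.01, 5.85 and 7.53 points. Porcn (chrX:8193848-8206525) and Ftsj1 (chrX:8238668-8252406) then rose, Tspan7 fell by 12.5 points, and Bcor (chrX:12036740-12160355) and 1810030O07Rik (chrX:12654879-12673668) rose. Uba1 (chrX:20658326-20683179) rose between Ndufb11 and Cdk16, which fell by 6.98 and 6.06 points. Dynlt3, a dynein light chain gene at chrX:9654267-9663003, kept its level, at 52.1% of 2178 reads at day 36 and 53.8% of 1299 reads at day 29, having stood at 2.22% in MEF2.

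The genes were also counted by role, and each count stands beside the 36.2% of all 290 genes that were lower and the 4.83% that were higher. Of 29 measured ubiquitous genes, 17 were lower and 1, Uba1, was higher, with a median difference of −3.96 points beside −2.38 over all genes. Hprt, a purine salvage enzyme, stood at 0.92% of 1408 reads at day 36 and 8.0% of 1175 reads at day 29. Idh3g, a subunit of mitochondrial isocitrate dehydrogenase, stood at 0.64% of 472 reads at day 36 and 12.1% of 448 reads at day 29. Among 29 chromatin and transcription genes 9 were lower, a share near that of all genes, and 4 higher (median −1.86 points), the 4 being Tfe3, Bcor, Bcorl1 and Phf8. Stag2, a cohesin subunit, stood at 3.99% of 1002 reads at day 36 and 11.8% of 600 reads at day 29. At its 11 sites mostly variant in fibroblasts it stood at 1.54% of 973 reads at day 36 and 3.15% of 540 reads at day 29. It did not pass there (Fisher's exact test, adjusted p of 0.0774).

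Of 11 measured genes of the escape list, against 36.2% lower and 4.83% higher over all genes, 1 was lower (Bgn) and 1 higher (1810030O07Rik), with a median difference of −1.08 points. Both stood low in MEF2, Bgn at 1.21% of 30319 reads and 1810030O07Rik at 1.19% of 168 reads. At its 22 sites mostly variant in fibroblasts 1810030O07Rik differed by 2.74 points and did not pass (Fisher's exact test, adjusted p of 0.424). The other 9 passed in neither direction, among them Eif2s3x, a translation initiation factor subunit, at 54.3% of 1312 reads at day 36 and 56.9% of 942 reads at day 29, and Kdm5c, a histone demethylase, at 37.0% of 1252 reads at day 36 and 35.5% of 1079 reads at day 29. Of 10 ubiquitin genes 3 were lower and 1 higher (median 0.10 points). Of 4 pluripotency and germline genes Rhox5 was lower and Tfe3 higher, while Dusp9 and Klhl13 passed in neither direction (median 2.22 points). Rlim, a ubiquitin ligase that promotes Xist expression, was lower, at 14.2% of 8262 reads at day 36 and 17.2% of 4403 reads at day 29. At its 49 sites mostly variant in fibroblasts Rlim stood far below these sums, at 0.62% of 6915 reads at day 36. The share at those sites was 2.996% of 3638 reads at day 29.

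Of 10 matrix and cytoskeleton genes 7 were lower and 2 higher (median −9.62 points), beside 36.2% and 4.83% over all genes. Flna, the actin cross-linker filamin A, was among the lower ones, at 7.51% of 919 reads at day 36 and 22.1% of 1070 reads at day 29. Of 6 proton pump and lysosome genes 4 were lower, among them Clcn5 and Atp6ap1, and none higher (median −8.81 points). Atp6ap1, an accessory subunit of the vacuolar proton pump, stood at 14.5% of 1946 reads at day 36 and 24.0% of 1485 at day 29. At its 15 sites mostly variant in fibroblasts it stood at 4.41% of 1702 reads at day 36 and 14.9% of 1296 at day 29. Of 15 Bex, Tceal and Armcx genes 7 were lower and none higher (median −5.65 points).

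Reads of marker genes for several cell types were summed beside these counts. Summed over 15 measured fibroblast markers, coverage was 17359 reads at day 36 and 19752 scaled reads at day 29, reference reads were 3419 against 6199.5 scaled, and 10 of the 15 genes were lower in share and 2 higher. Coverage at day 36 was lower than the scaled day 29 coverage in 9 of the 15 genes. Bgn alone had 306 reads at day 36 and 1997 scaled reads at day 29. Col4a5, Col4a6, Srpx, Srpx2 and Amot of this list appear in neither table. Of 10 listed pluripotent cell markers, the 4 measured held 5569 reads at day 36 and 4121 scaled reads at day 29. Tfe3 alone held most of these reads on both days, and 1 of the 4 had lower scaled coverage at day 36. The 2 measured extraembryonic genes, Esx1 and Cited1, held 3651 reads at day 36 and 3222 scaled reads at day 29, and Dmd, the muscle marker, 125 and 119. None of the 8 blood or 6 neural markers had a site at 20 reads in both libraries. The tables hold X-linked genes only, and the part of a changing cell mixture in the loss was not tested.

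A site that is all reference is not listed, since the tables start at 5% variant reads, so a gain beyond 95% reference cannot appear. At 20 reads or more, 492 sites were listed at day 36 and not at day 29, and 376 at day 29 and not at day 36. Of these, 278 and 352 were 80% reference or more, near that floor. A site that turned all variant stays listed, so losses at the shared sites are not cut short by the floor. Losses at sites beyond 95% reference at day 29 would be missed. Of the sites listed at day 36 alone, 181 were at 20% reference or less, against 9 of those listed at day 29 alone. Such a site may have been all reference or too thinly covered in the other library, and these cases cannot be told apart.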

How the data were processed

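RNA was extracted with ISOGEN, and libraries were made from 500 ng of total RNA by poly(A) selection with a directional kit, per the labels' protocols, and sequenced as 76-base read pairs, per the series' design text. The authors called single-base variants on mm10 (per the submitters' processing notes) with the Basic Variant Call tool of the CLC workbench, per the same text. No aligner or setting is given in the sources used here. The deposited tables list variant read counts and coverage counts per site, and the variant frequency in percent, per the file headers; the tables used here start at 2 variant reads, 5 percent and a coverage of 10. The 2 libraries hold 7991 (day 36) and 6537 (day 29) listed variants, and 3871 and 3104 single-base sites at 20 reads or more.

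Reference reads are coverage minus variant count. A site listed with several gene names was assigned by its GENCODE M21 exon where only 1 of those genes has one (77 sites) and otherwise left out (48), as were 150 sites without a name and 1 position with another variant base. Reads per gene were compared with Fisher's exact test, checked on simulated data, in Python 3.11.15 with SciPy 1.17.1. The simulated sites were drawn independently, so the check does not cover sites that lie on the same read. Named genes are those past 20 points, the 8 most negative and 8 most positive differences at an adjusted p under 0.05 with 100 reads in both libraries, and the 10 kept genes described above; other genes were named from the lists after their values were seen. The members and lists were chosen with earlier results of these data known. Alternatives covered the coverage minimum, the sites summed, the size of a difference, the adjustment, the biallelic limit and the scaling. Insertions, deletions and the frequency column were not used.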

Additional observations from a re-analysis of the deposited data

Results flagged for a closer look

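Data outside the gene counts held a signal above the fibroblasts. At 54 single-base sites without a gene name that MEF2 also lists, the reference share was 9.25% of 3926 reads at day 36 (95% Wilson interval 8.38 to 10.2%) and 13.0% of 3222 reads at day 29 (11.9 to 14.2%), against 6.16% of 4284 reads in MEF2 (5.48 to 6.92%). The sites lie outside the comparison by gene because they carry no gene name.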

How the results depend on the processing

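No paired analysis was possible because each day of the course held 1 library, and for the same reason no library could be left out. The 105 lower genes became 58 at 50 reads per site (157 genes tested), 32 with the best-covered site of each gene alone and 67 with Bonferroni adjustment. The 14 higher genes became 3 with the best-covered site alone, 9 with sites 150 bases apart, 7 at sites mostly variant in fibroblasts (222 genes tested) and 6 with Bonferroni adjustment. Genes lower by 20 points or more numbered 5 at 10 reads per site, 6 with the best-covered site alone, 28 at 10 points and 1 at 30 points; genes higher numbered 6 at 10 points and 0 at 30 points. The median difference was −3.30 points at sites mostly variant in fibroblasts. The biallelic difference was −1.38 points with a 20% limit. With reads summed over a band, the difference was 3.81 points from 0 to 30 Mb, −6.84 from 60 to 90 Mb and −4.79 from 90 to 120 Mb. Phf8 reversed to −4.75 points at the 2 sites mostly variant in fibroblasts. Of 248 values for 26 named genes, 217 kept their side of the threshold, 26 no longer passed it, 4 newly passed it and 1 reversed. Genes past the threshold in neither case counted among the 217 even where the sign changed. Lamp2, for example, differed by 0.79 points at 50 reads per site, against −2.05 points in the main comparison. An alternative chosen after seeing the data, without sites at 80% reference or more in both libraries, lifted Nono past the threshold and changed no other call among named genes. Apart from fewer genes or sites tested, the causes of these changes were not tested.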
